A study of Mus musculus with 27 samples.

Results

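Long intergenic noncoding RNAs (lincRNAs) are transcripts of genes that lie between protein-coding genes and carry no long reading frame. The genes described here are the 109 of biotype lincRNA whose mean reached at least 2 CPM (a gene's count over its library's total count, scaled to a common depth) in at least 1 of 9 groups of mouse cell cultures. They were chosen from 5629 lincRNA genes among 55487 gene identifiers, and 2484 of the 5629 had 0 counts in all 27 libraries. The same threshold was reached by 11887 of 21936 protein-coding genes. Because the values that chose the members were group means of CPM, their levels are given as a description. Tests of level between the vehicle groups are printed, but nothing is read from them.

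Each group held 3 libraries of polyadenylated RNA, made with an oligo-dT primed kit. Primary microglia shaken off mixed glial cultures, bone marrow-derived macrophages (BMDM) grown with M-CSF, and hepatocytes plated on collagen were each kept for 24 h with 10 µM saringosterol, with GW at 1 µM (a synthetic compound that the labels spell GW3596, GW3964 and GW3965), or with the ethanol vehicle. All treatments were serum-free. The medium of microglia and BMDM was DMEM/F12 with M-CSF, albumin, insulin, transferrin and selenite, and that of hepatocytes was Williams' E without these, so medium and cell type cannot be told apart. The labels give neither genotype, strain nor age, and do not say whether replicates came from separate animals or cultures, so that p-values measure only the spread between these libraries. Saringosterol is a sterol of plants and algae, and GW3965 is a known agonist of the liver X receptors (LXR), nuclear receptors that sense oxidised sterols and switch on genes of cholesterol export. The doses differed, so the values of both compounds stand side by side and were not compared, and both are set against the same vehicle libraries.

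Noncoding transcripts of this class are known for narrow expression across cell types and for levels below those of most messenger RNAs. Some act in the nucleus, as Malat1 and Neat1 do in nuclear speckles and paraspeckles. Some regulate neighbouring genes: AI427809, known as MeXis in mouse macrophages, is an LXR-induced transcript that raises expression of its neighbour Abca1, the membrane transporter that loads cholesterol onto apolipoproteins. Most members have no known role, and 87 of the 109 carry placeholder symbols of the Gm or Rik type.

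Libraries held 30295862 to 41040268 counts in genes, and 0 counts in a library allow up to 3 counts, which is 0.073 to 0.099 CPM and covers counting error only. Macrophage markers summed to 35210 to 39840 CPM in microglia, 21970 to 29440 CPM in BMDM and 332 to 378 CPM in hepatocytes, and hepatocyte markers summed to at least 9448 CPM in hepatocytes and at most 1.49 CPM elsewhere. Of 7 microglia markers, Siglech had 0 counts in all 9 microglia libraries, while Tmem119 lay between 2.53 and 4.86 CPM there; Sall1, on the same list, lay between 69.3 and 80.1 CPM in hepatocytes and between 2.06 and 3.55 CPM in microglia. Of other lists, Kupffer cell markers summed to 174 to 370 CPM in microglia and at most 38.2 CPM elsewhere, oligodendrocyte markers to 63.7 to 82.6 CPM in microglia and 65.1 to 82.3 CPM in BMDM, cholangiocyte markers to 159 to 193 CPM in hepatocytes, endothelial markers to 29.5 to 88.1 CPM in BMDM, and fibroblast and stellate markers to at most 3.95 CPM anywhere. The library of BMDM with saringosterol, replicate 3, stood apart from its group: a list of 17 interferon-stimulated genes, added with earlier results known, summed to 1156 CPM in it and to 217 and 252 CPM in the other two. Without it, values of the results in BMDM that it moves are given beside those with all libraries. It is in no GW or vehicle group, so it enters results for GW through the spread shared by the fit. A further library, microglia with vehicle, replicate 1, alone held Gm50321 at 15.3 CPM and Gm33148 at 5.71 CPM, against at most 0.647 and 0.743 CPM in the 8 other microglia libraries, so that these genes are members through 1 library.

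The members together made up a small part of each library. Their summed level lay between 688 and 922 CPM in every library, with a mean of 739 ± 35.4 CPM in microglia with saringosterol, 759 ± 38.7 CPM with GW and 738 ± 47.8 CPM with vehicle (SD, n = 3 each). In BMDM the means were 747 ± 34.5, 784 ± 42.9 and 857 ± 64.3 CPM with saringosterol, GW and vehicle, and in hepatocytes 884 ± 18.3, 818 ± 28.5 and 804 ± 33.6 CPM. A few genes carried most of this: 2900097C17Rik, Malat1 and AW112010 held 42.0% of all member counts, and the first 10 genes held 65.7%. Only 8 members reached 20 CPM in any group, and 57 had their highest group mean between 2 and 5 CPM. Just inside the threshold lay 9330175E14Rik at 2.03 CPM, BC043934 at 2.04 CPM and Gm19589 at 2.07 CPM, and just outside it Gm38910 at 1.91 CPM, 4930423D24Rik at 1.93 CPM and 2210417A02Rik at 1.95 CPM. Membership was held in all 9 groups by 21 genes and in 1 group by 10, and 9 genes reached 2 CPM in treated groups only and 5 in vehicle groups only. Leaving out a single library took 6 genes below the threshold.

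Per length, the most abundant members were not the same as by count. In the deposited TPM (a level that corrects for transcript length), averaged over the 27 libraries, Gm10076 led with 271.4 TPM, followed by AW112010 with 261 TPM, 2900097C17Rik with 77.0 TPM and Malat1 with 52.2 TPM. Gm36161 (37.6 TPM), Gm13710 (23.9 TPM), Oip5os1 (21.9 TPM), Gm39469 (21.9 TPM), Gm7292 (20.1 TPM) and Gm30692 (17.02 TPM) came next. Gm10076, of 384 bases on chromosome 14, shares 99.7% of its longest transcript at 99.5% identity with the ribosomal protein gene Rpl41, so its level is uncertain. AW112010 owed its place to hepatocytes, where it averaged 766.5, 694.9 and 665.4 TPM with saringosterol, GW and vehicle, against 35.2, 19.1 and 68.0 TPM in microglia.

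Sharing of sequence touched other members too. With at least 200 bases at 97% identity or more, 24 of the 109 shared a stretch with another gene. In 15 it covered at least 50% of the longest transcript in GENCODE M21, which for some genes is shorter than the exons counted. Among them are 2900097C17Rik with Gm7292, Gm36684 with the mitochondrial superoxide dismutase gene Sod2, Gm47283 with Erdr1, and Gm21860 with G530011O06Rik. The exons of 26 members overlapped exons of another gene, and how the authors counted such reads or used strand is not given in the sources used here. Values of all these genes are therefore uncertain. All 109 were found in GENCODE M21 on GRCm38, 105 with the same span and strand, and 104 of the type lincRNA there.

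The members' median length was 2318 bases, against 4454 bases for the protein-coding genes at the same threshold, and the longest were Neat1 (20771 bases, chromosome 19: 5824708 to 5845478) and Xist (17946 bases). The median distance from a member's start to the nearest protein-coding start was 31253 bases, and 19 members lay beyond 100000 bases from any. In 8 members the nearest protein-coding start lay within 1000 bases on the other strand, facing away, as in 1110019D14Rik beside 2610001J05Rik, 2010320M18Rik beside Pik3r2 and 5031425E22Rik beside Kmt2e. The largest numbers of members stood on chromosome 17, with 11, and chromosome 5, with 9.

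Levels of members are laid out by cell type as a description. By the rule's own threshold, 38 members reached 2 CPM in hepatocytes only, 21 in both microglia and BMDM but not hepatocytes, 31 in all 3 cell types, 7 in microglia only and 7 in BMDM only; 3 did so in BMDM and hepatocytes and 2 in microglia and hepatocytes. In the test of vehicle libraries, 91 of 108 members tested differed between hepatocytes and microglia, 43 of them higher in hepatocytes, beside 76.3% of all 17466 genes (37.7% higher, 38.6% lower). Between hepatocytes and BMDM 92 differed, 43 higher in hepatocytes, beside 78.1% of all genes (38.9% higher, 39.2% lower). Between microglia and BMDM 38 differed, 20 higher in microglia, beside 49.1% of all genes (25.8% higher, 23.4% lower). As members were chosen by level, these counts describe the choice and nothing is read from them.

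**Figure D1:**
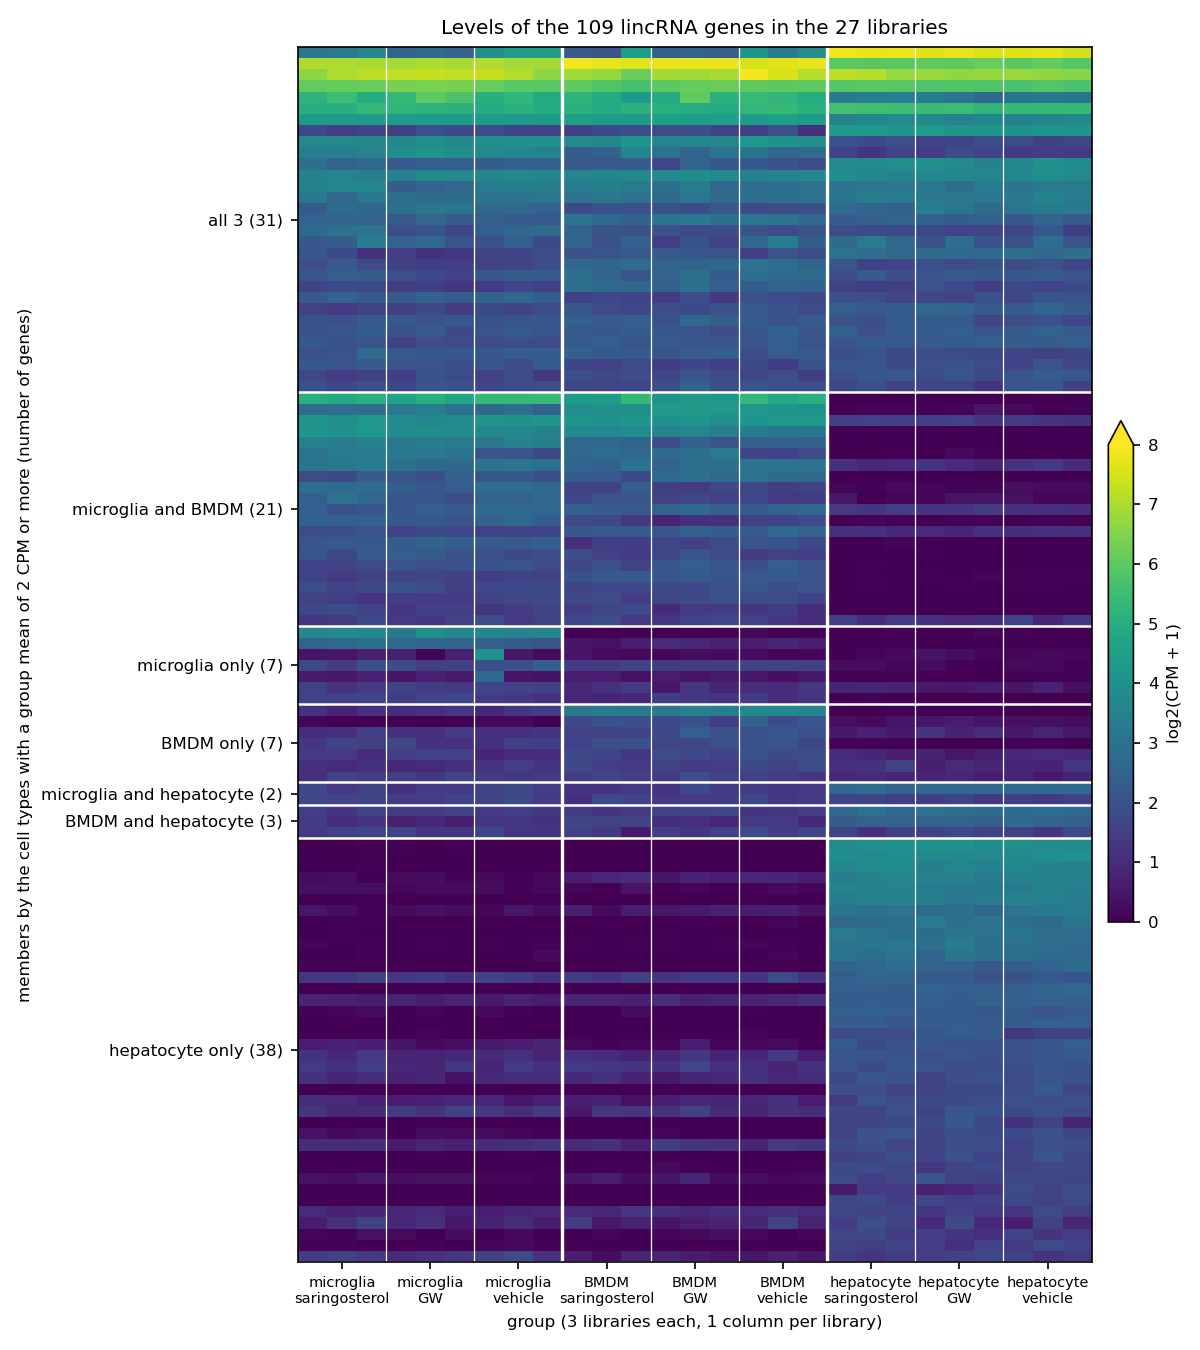
Level of each of the 109 lincRNA genes as log2(CPM + 1) in the 27 libraries, 1 column per library and 1 line per gene, sorted by the cell types in which a group mean reached 2 CPM and then by level. In the lowest block, of 38 genes, 27 are under 1 CPM in every microglia and BMDM library and 11 reach 1 CPM or more in at least 1, up to 2.53 CPM. The 21 of the second block reach 2 CPM in both microglia and BMDM but not in hepatocytes, 10 of them with a highest group mean between 2 and 5 CPM. The bright cells in the first vehicle column of microglia are Gm50321 and Gm33148.

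Of the members, 47.7% reached 2 CPM in 1 cell type only, against 13.75% of the protein-coding genes at the same threshold. The gap was not the same at every level. Among genes with a highest group mean between 2 and 5 CPM the shares were 63.2% of 57 members and 62.8% of 1052 protein-coding genes. Between 5 and 20 CPM they were 36.4% of 44 members and 19.3% of 2478 protein-coding genes. At 20 CPM or more they were 0 of 8 members and 5.91% of 8357 protein-coding genes. The members' median of the highest group mean was 4.81 CPM and that of the protein-coding genes 45.5 CPM.

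**Figure D2:**
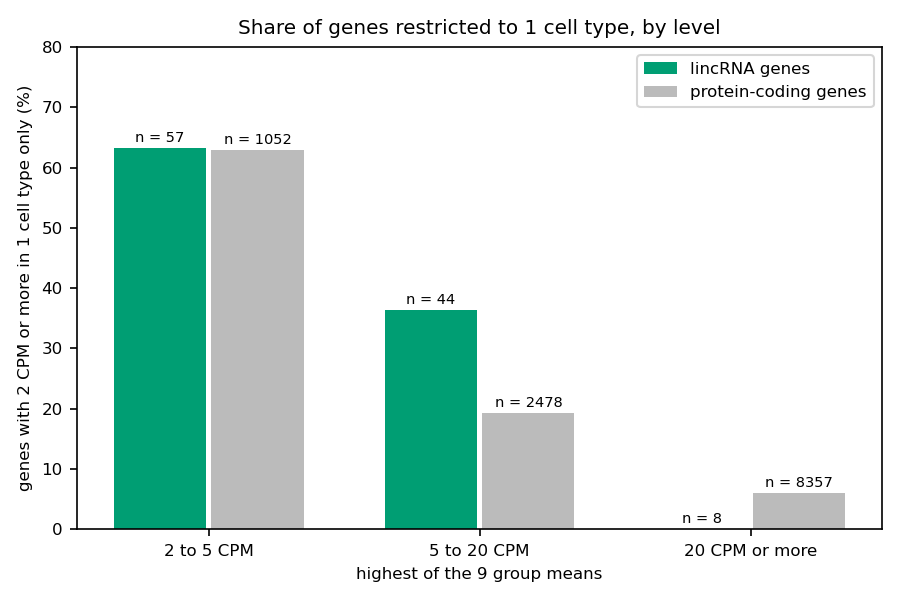
Percentage of genes with at least 2 CPM in 1 cell type only, for lincRNA genes and protein-coding genes in 3 classes of their highest group mean, with the number of genes above each bar. In the lowest class the bars stand at 63.2% and 62.8%, and in the middle class at 36.4% and 19.3%.

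The most hepatocyte-biased member was 4732465J04Rik, on chromosome 10 (95746077 to 95797236). It averaged 14.5 ± 1.36 CPM in vehicle hepatocytes (SD, n = 3) and had 0 counts in all 18 libraries of microglia and BMDM. Gm30692 averaged 13.8 ± 0.68 CPM in vehicle hepatocytes with 6 counts in all in the 18 other libraries, Gm8883 11.5 ± 0.66 CPM with 2 counts, A930038B10Rik 10.3 ± 0.673 CPM with 3 counts, Gm38416 6.75 ± 0.831 CPM with 2 counts, and 4732419C18Rik 6.57 ± 0.788 CPM with 10 counts. With the compounds 4732465J04Rik averaged 13.9 ± 1.14 CPM (saringosterol) and 13.01 ± 0.272 CPM (GW) in hepatocytes, and none of these 6 genes was called. Over the 9 group means of log2 CPM, the genes most like 4732465J04Rik included Aadac, an esterase of liver and intestine, and F13b, a subunit of a clotting factor, with Pearson's r of 1.0 each; these points share 3 hepatocyte groups against 6 groups near 0.

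In the other direction, 5 members had 0 counts in all 9 hepatocyte libraries: Gm14461, Gm13391, Gm5547, AU022793 and Gm50022. AU022793 held 4741 counts and Gm14461 8496 counts over the microglia and BMDM libraries.

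Between microglia and BMDM, Xist, the RNA that coats and silences an X chromosome in female cells, was the most microglia-biased member: it lay between 8.25 and 15.03 CPM in all 9 microglia libraries, and was at most 0.131 CPM in the 18 others. Y-linked markers (Ddx3y, Eif2s3y, Kdm5d and Uty) summed to 49.5 to 67.2 CPM in microglia. They summed to 134.7 to 155.4 CPM in BMDM and 193 to 231 CPM in hepatocytes. Both kinds of transcript were thus above 8 CPM in the microglia libraries only. Xist and Y-linked genes differ with the sex of the cells, so for them sex and cell type cannot be told apart. After Xist and the 2 genes of a single library came Gm26520 at 3.77 ± 0.552 CPM in vehicle microglia and 0.652 CPM in vehicle BMDM, Gm21860 at 6.02 ± 0.548 and 2.01 CPM, and Gm36684 at 5.14 ± 0.464 and 1.88 CPM. The most BMDM-biased members were Bvht, known as braveheart from mouse heart development, at 3.69 ± 1.19 CPM in vehicle BMDM, 9630028I04Rik at 11.6 ± 0.66 CPM against 1.38 CPM in vehicle microglia, and Gm13710 at 17.1 ± 0.901 CPM against 5.63 CPM. 1700096K18Rik, Gm36738 and Gm49980 followed, with 2.72, 3.1 and 6.16 CPM in vehicle BMDM and at most 0.941, 1.22 and 2.58 CPM in the other vehicle groups.

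Members expressed everywhere included the nuclear RNAs. Malat1 lay between 70.9 and 239 CPM in every library, and its largest spread was in BMDM with vehicle, at 239, 182 and 133 CPM. Neat1 averaged 33.0 ± 4.82 CPM in vehicle microglia, 36.4 ± 6.14 CPM in vehicle BMDM and 7.84 ± 0.315 CPM in vehicle hepatocytes. Malat1 is known to end without a poly(A) tail. The reference transcript holds a run of 12 A near its end, from base 6674 of its 6983 bases, which is printed because the libraries were primed with oligo-dT; where reads began was not tested. The stretch, from GENCODE M21 (GRCm38, chromosome 19, minus strand), has the run in capitals.
Malat1: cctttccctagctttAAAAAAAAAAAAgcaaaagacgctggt

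Responses to the compounds were tested within each cell type. For saringosterol in microglia, at an adjusted p under 0.05 (from edgeR's quasi-likelihood test, adjusted by Benjamini-Hochberg across every gene in the fit, and called edgeR adjusted p from here on), 3 of 84 members tested rose and 4 fell, beside 10.8% of all 16065 genes called (4.19% higher, 6.66% lower). The 25 members not tested were too low in microglia, and members that passed the filter did so on their own level. The median log2 fold change was 0.03 over the members. GW in microglia called the most: 10 of 84 members rose and 11 fell, beside 28.7% of all genes (13.4% higher, 15.2% lower), with a members' median of -0.03. The members' shares called, 8.33% and 25.0%, stood beside backgrounds of 10.8% and 28.7%.

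In BMDM, saringosterol raised 2 of 83 members tested and lowered 3, beside 10.7% of all 15416 genes called (5.53% higher, 5.12% lower). GW in BMDM raised 2 and lowered 2 of 83, beside 10.4% of all genes (5.66% higher, 4.76% lower). Without the saringosterol library that stood apart, 9 members were called with saringosterol, 2 higher and 7 lower, beside 10.5% of all genes, and 9 with GW, 3 higher and 6 lower, beside 15.8% of all genes. In hepatocytes 1 of 86 members rose and 1 fell with saringosterol, beside 1.91% of 16098 genes called (0.888% higher, 1.02% lower). With GW 2 of 86 rose and 0 fell, beside 1.11% of genes called (0.721% higher, 0.385% lower); both are members through treated hepatocytes only, so that nothing is read from this count. At an unadjusted p under 0.05, 9 members passed with saringosterol and 6 with GW in hepatocytes. The share of all genes at that cut is not given, so nothing is read from these counts. Over the 6 comparisons 41 calls fell on 30 different members.

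**Figure D3:**
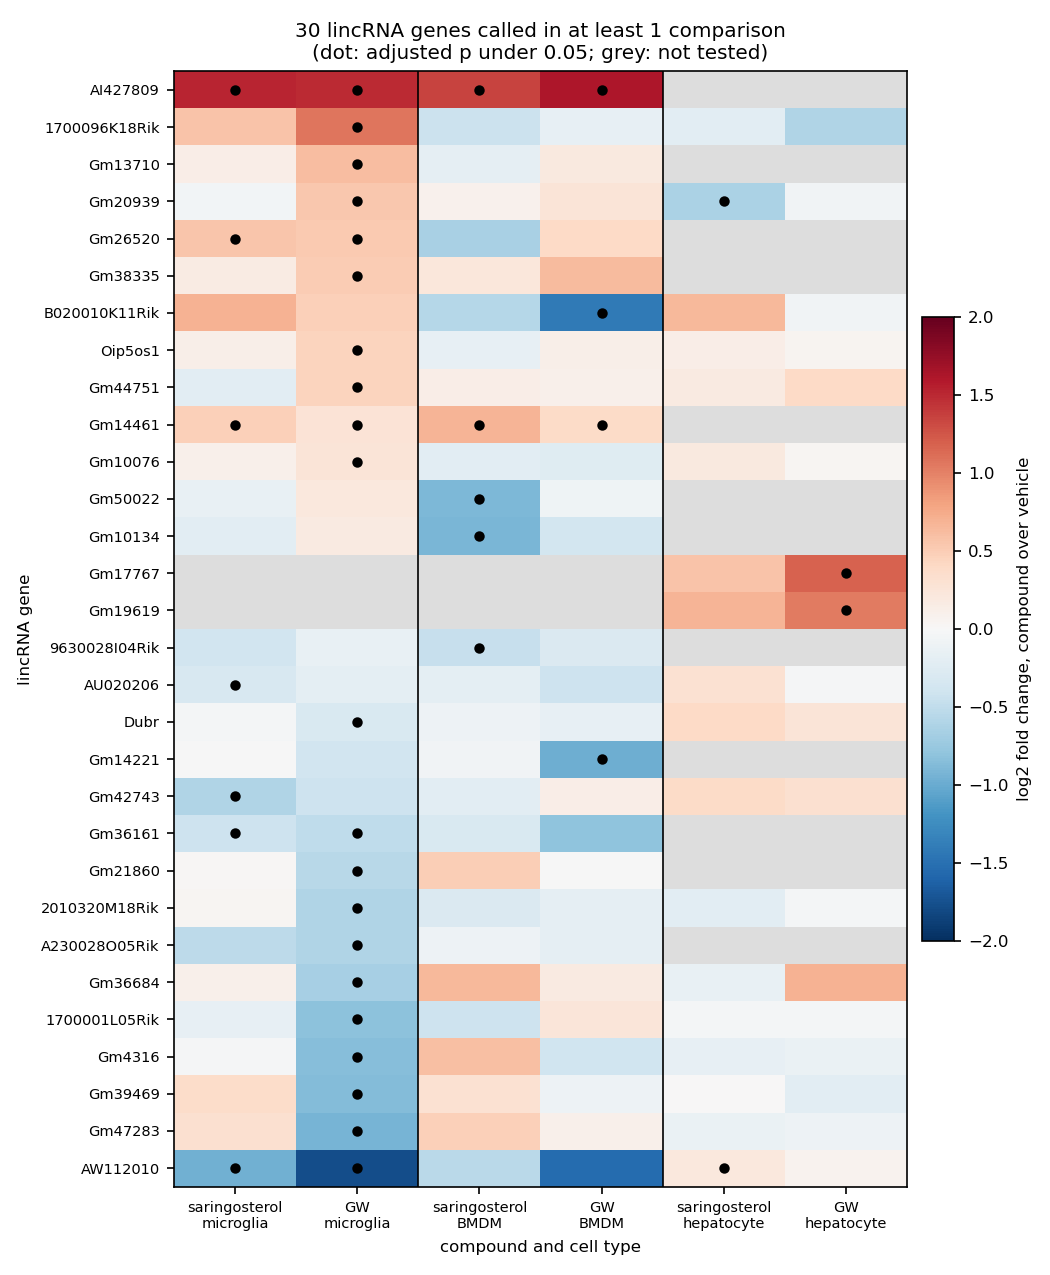
Log2 fold changes of compound over vehicle for the 30 members called in at least 1 comparison, with saringosterol left of GW within each cell type; dots mark an adjusted p under 0.05 and grey marks genes not tested. AI427809 stands between 1.35 and 1.62 in 4 columns, AW112010 reaches -1.77 with GW in microglia, and most dots lie in the column of GW in microglia, with 21.

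AI427809 (MeXis) was the one member that rose strongly with both compounds in both macrophage types. It lies on chromosome 4, minus strand, from 53261356 to 53270232 (GRCm38), and its start is 110337 bases from that of Abca1 on the same strand. In microglia it stood at 7.36, 9.33 and 9.17 CPM with saringosterol and at 8.44, 8.01 and 7.43 CPM with GW, against 3.3, 3.26 and 2.32 CPM with vehicle. In BMDM it stood at 5.5, 6.48 and 5.48 CPM with saringosterol and at 5.8, 6.23 and 8.57 CPM with GW, against 2.17, 2.04 and 2.63 CPM with vehicle. No treated macrophage library overlapped the vehicle libraries of its cell type. In hepatocytes it was at 0 counts in 6 of 9 libraries and at most 0.127 CPM, and it was not tested there.

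The log2 fold change of AI427809 was 1.53 (SE 0.15, edgeR adjusted p = 5.9e-09) with saringosterol and 1.49 (SE 0.15, edgeR adjusted p = 1.9e-09) with GW in microglia. In BMDM it was 1.35 (SE 0.19, edgeR adjusted p = 9.3e-05) with saringosterol and 1.62 (SE 0.19, edgeR adjusted p = 6.7e-06) with GW. Abca1 rose in the same 4 comparisons, with log2 fold changes of 1.71 (SE 0.03) and 2.16 (SE 0.04) in microglia and 1.52 (SE 0.07) and 1.98 (SE 0.07) in BMDM for saringosterol and GW in turn. Abca1 stood far above the noncoding gene by count, between 2220 and 3067 CPM in treated microglia and between 678 and 717 CPM in vehicle microglia. In hepatocytes Abca1 was at 240.8, 226.4 and 231.5 CPM with GW, against 55.9, 63.8 and 64.5 CPM with vehicle, while AI427809 was at 0, 0.127 and 0.0527 CPM in the same GW libraries. Of 8 known LXR target genes on a list, 8 rose with saringosterol and 8 with GW in microglia, 8 and 7 in BMDM, and 0 and 5 in hepatocytes. The first 150 of the 2033 bases of transcript AI427809-203 (GENCODE M21) are given to identify the RNA.
AI427809-203: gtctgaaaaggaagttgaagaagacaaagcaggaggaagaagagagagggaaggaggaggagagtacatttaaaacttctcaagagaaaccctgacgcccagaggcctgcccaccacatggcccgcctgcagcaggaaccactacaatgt

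Gm14461 rose in the same 4 comparisons by less. It is an uncharacterised gene on chromosome 2 (78237547 to 78302230, plus strand) whose nearest protein-coding start, that of Cwc22, lies 291172 bases away. In microglia it stood at 17.1, 15.4 and 18.1 CPM with saringosterol and 13.6, 14.4 and 13.6 CPM with GW, against 12.7, 12.3 and 10.9 CPM with vehicle. In BMDM it stood at 12.9, 12.4 and 13.9 CPM with saringosterol and 10.7, 11.5 and 9.38 CPM with GW, against 9.38, 7.67 and 7.57 CPM with vehicle. All saringosterol libraries lay above the vehicle libraries of their cell type; with GW the lowest BMDM library stood level with the highest vehicle library. The log2 fold changes with saringosterol were 0.48 (SE 0.09, edgeR adjusted p = 0.00037) in microglia and 0.68 (SE 0.12, edgeR adjusted p = 0.0011) in BMDM. With GW they were 0.27 (SE 0.09, edgeR adjusted p = 0.025) and 0.39 (SE 0.12, edgeR adjusted p = 0.045), and these 2 calls were lost without single libraries. In microglia this was without GW replicate 2 (edgeR adjusted p = 0.088) or vehicle replicate 3 (0.11). In BMDM it was without GW replicate 1 (edgeR adjusted p = 0.11) or 2 (0.16) or vehicle replicate 2 (0.17) or 3 (0.11), and also with the replicate block (0.051). Cwc22 did not pass the test in any of the 4. The first bases of transcript Gm14461-201 (GENCODE M21) are as follows.
Gm14461-201: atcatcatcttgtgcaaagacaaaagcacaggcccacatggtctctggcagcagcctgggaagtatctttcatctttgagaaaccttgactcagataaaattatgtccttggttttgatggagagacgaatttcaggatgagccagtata

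AW112010 fell furthest. This gene of chromosome 19 (11047612 to 11055808, minus strand) is known in mouse macrophages as an RNA induced by inflammatory signals that is translated from a noncanonical reading frame. In microglia it stood at 8.09, 9.14 and 11.6 CPM with saringosterol and 5.0, 5.96 and 4.68 CPM with GW, against 14.8, 20.02 and 20.8 CPM with vehicle, with no overlap. Its log2 fold change in microglia was -0.96 (SE 0.14, edgeR adjusted p = 3.5e-05) with saringosterol and -1.77 (SE 0.15, edgeR adjusted p = 3.3e-09) with GW. In BMDM it stood at 3.91, 3.4 and 21.01 CPM with saringosterol and 4.6, 4.93 and 4.4 CPM with GW, against 17.8, 9.5 and 14.2 CPM with vehicle. The third saringosterol library, which stood apart, exceeded every vehicle library of BMDM, while the other two and all GW libraries lay below them.

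With all BMDM libraries AW112010 did not pass the test, with log2 fold changes of -0.54 (SE 0.72, edgeR adjusted p = 0.71) for saringosterol and -1.54 (SE 0.75, edgeR adjusted p = 0.27) for GW. Without that library it fell by 1.92 on the log2 scale with saringosterol (SE 0.21, edgeR adjusted p = 5.6e-07). With GW it fell by 1.54 (SE 0.17, edgeR adjusted p = 6.6e-07), a setting chosen after seeing the data. The estimate for GW was thus the same in both settings, and its SE differed. In hepatocytes its level was an order above: 228.4, 214.8 and 221.2 CPM with saringosterol and 197.6, 213.8 and 187 CPM with GW, against 192.5, 201.1 and 175.7 CPM with vehicle. There it rose with saringosterol by 0.20 (log2, SE 0.05, edgeR adjusted p = 0.038), a call lost without any of 5 of the 6 libraries, with edgeR adjusted p up to 0.29 without vehicle replicate 3; with GW it was at 0.07 (edgeR adjusted p = 0.81).

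The response of AW112010 in the macrophage types was set against that in hepatocytes. With all libraries none of these differences was called. For microglia minus hepatocytes it was -1.13 with saringosterol (edgeR adjusted p = 0.42) and -1.82 with GW (edgeR adjusted p = 0.053). For BMDM minus hepatocytes it was -0.68 with saringosterol (edgeR adjusted p = 0.49) and -1.59 with GW (edgeR adjusted p = 0.13). Without the library that stood apart, the difference between microglia and hepatocytes was -1.13 (SE 0.21, edgeR adjusted p = 0.0055) for saringosterol and -1.82 (SE 0.23, edgeR adjusted p = 1e-05) for GW. Between BMDM and hepatocytes it was -2.09 (SE 0.27, edgeR adjusted p = 5.4e-05) for saringosterol and -1.59 (SE 0.23, edgeR adjusted p = 0.00018) for GW. Apart from saringosterol between BMDM and hepatocytes, these settings were chosen after seeing the data. AW112010 was itself high in the omitted library, so the choice bears on these values. That library is in no group of the differences for GW or of those between microglia and hepatocytes. Their estimates were unchanged without it, and the lower SE and adjusted p came through the spread shared by the fit. Over the 9 group means of log2 CPM the genes most like AW112010 were Nmi, an interferon-inducible partner of STAT proteins, with Pearson's r of 0.9991, Trib1, a pseudokinase, with 0.9975, and Svbp, a partner of vasohibins, with 0.9966. All 3 shared with it the high hepatocyte groups.

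Gm36161 moved beside AW112010. The gene, on chromosome 13 (120010390 to 120018931, plus strand), shares 633 bases at 97.3% identity, 41.0% of its transcript, with Gm21188. In microglia it stood at 31.7, 28.3 and 31.5 CPM with saringosterol and 23.7, 32.2 and 25.2 CPM with GW, against 39.5, 39.3 and 41.9 CPM with vehicle, again with no overlap. The log2 fold changes were -0.41 (SE 0.09, edgeR adjusted p = 0.0023) with saringosterol and -0.51 (SE 0.09, edgeR adjusted p = 6.9e-05) with GW, and Gm21188 was at -0.37 and -0.61. In BMDM it stood at 19.6, 20.3 and 39.1 CPM with saringosterol and 15.9, 20.6 and 18.4 CPM with GW, against 38.0, 27.7 and 32.4 CPM with vehicle. With all libraries it did not pass the test in BMDM, at -0.31 with saringosterol (edgeR adjusted p = 0.59) and -0.81 with GW (edgeR adjusted p = 0.16). Without the library that stood apart it fell by 0.71 with saringosterol (edgeR adjusted p = 0.00013) and by 0.80 with GW (edgeR adjusted p = 3.2e-06). Of the hepatocyte libraries 1 held any of it, at 0.0265 CPM, and the 8 others had 0 counts.

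Interferon-stimulated genes moved beside both RNAs. The 17 genes of that list summed to 1443 to 1489 CPM in microglia with saringosterol and 835 to 1074 CPM with GW, against 2389 to 2692 CPM with vehicle, and 16 of 17 fell with saringosterol and 17 of 17 with GW. In BMDM they summed to 217, 252 and 1156 CPM with saringosterol and 276 to 322 CPM with GW. With vehicle the sum was 478 to 696 CPM. With all libraries 0 of 17 were called with saringosterol and 1 fell with GW. Without the saringosterol library that stood apart 16 of 17 fell with each compound. Their median log2 fold change with GW was -0.89 in both settings, and with saringosterol it went from -0.34 to -1.51. In hepatocytes the sum lay between 2567 and 3373 CPM in every group, and 1 gene rose with each compound. Stat2, a transcription factor of interferon signalling, stood at 36.9, 44.7 and 129 CPM in the saringosterol libraries of BMDM and at 82.7, 65.5 and 80.5 CPM in the vehicle libraries. The part of interferon signalling in the changes of AW112010 and Gm36161 was not tested.

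The promoters bear on this group only as a description. Of the 109 members 71 had an entry in the RefSeq promoter table (GRCm38.p6), with 92 promoters. The core of the interferon-stimulated response element (GAAA, 2 bases of any kind, GAAA; both strands) was in 1131 of 32851 promoters in all (3.44%) and in 4 of the 92, which belong to Gm36161 and Gm33148; it was not in that of AW112010. A perfect form of the LXR response element (AGGTCA, 4 bases of any kind, AGGTCA, on either strand) was in 5 of 32851 promoters (0.0152%) and in 0 of 92. A form this rare says nothing about the members. AI427809 had no entry in the promoter table under its symbol, so its promoter was not searched. The promoter of Gm36161 on the plus strand (chr13:120010092-120010391) is printed with the match in capitals, at the end of the window.
Gm36161: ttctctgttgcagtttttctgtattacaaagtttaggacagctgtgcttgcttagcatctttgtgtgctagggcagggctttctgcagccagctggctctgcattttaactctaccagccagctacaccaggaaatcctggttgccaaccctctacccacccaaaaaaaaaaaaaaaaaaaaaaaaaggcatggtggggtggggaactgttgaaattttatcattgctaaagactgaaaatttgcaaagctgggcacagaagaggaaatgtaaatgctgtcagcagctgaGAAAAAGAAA

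**Figure D4:**
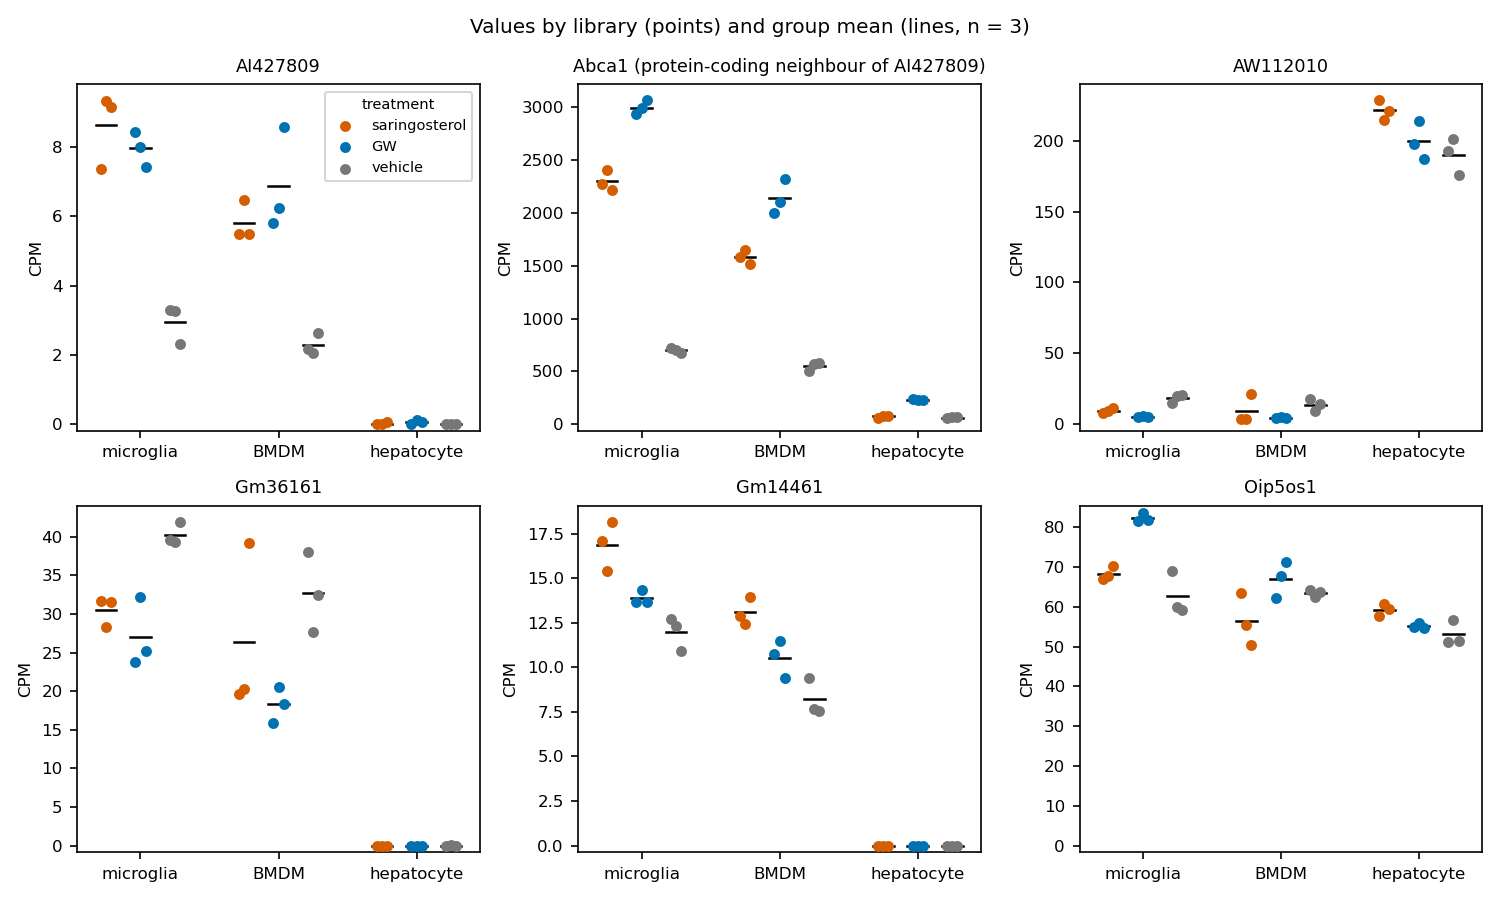
CPM in each library (points) and group mean (lines, n = 3) of 5 members and of Abca1, by cell type, with saringosterol, GW and vehicle from left to right. All treated macrophage libraries lie above vehicle for AI427809 and Abca1, AW112010 stands near 200 CPM in hepatocytes only, and 1 library of BMDM with saringosterol is high for AW112010 (21.01 CPM) and Gm36161 (39.1 CPM).

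Oip5os1 rose with GW in microglia. It is known as Cyrano, a conserved lincRNA that directs the destruction of the microRNA miR-7, and lies on chromosome 2 (119594297 to 119607502, plus strand). Microglia held 67.0, 67.8 and 70.3 CPM with saringosterol and 81.5, 83.7 and 81.8 CPM with GW, against 69.1, 60.0 and 59.1 CPM with vehicle. The GW libraries stood above all others, with a log2 fold change of 0.45 (SE 0.05, edgeR adjusted p = 3.6e-08). The change with GW was larger in microglia than in BMDM by 0.34 (SE 0.09, edgeR adjusted p = 0.015) and larger than in hepatocytes by 0.42 (SE 0.09, edgeR adjusted p = 0.0022); the difference from BMDM was lost without microglia vehicle replicate 2 (0.063) or 3 (0.053). Its nearest protein-coding start, 24001 bases away on the same strand, is that of Nusap1, a mitotic spindle protein, which was at -1.40 (SE 0.13) with GW in microglia. Of 2 matches to the miR-7 seed in its 8300-base transcript (1700020I14Rik-202 in GENCODE M21), the one at base 2952 is followed upstream by 13 further bases that pair with the 3′ end of the microRNA. The mature microRNA from RefSeq (GRCm38.p6, seed in capitals) and that site (seed match in capitals) are given, as they carry the known function of the gene.
mmu-miR-7a-5p: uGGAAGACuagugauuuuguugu
Oip5os1: aacaacaaaatcaccaatGTCTTCCat

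Other members rose with GW in microglia. 1700096K18Rik, a gene of 1 exon on chromosome 5, stood at 1.79, 1.97 and 1.97 CPM with GW, against 0.83, 0.989 and 1.0 CPM with vehicle, with a log2 fold change of 1.08 (SE 0.26, edgeR adjusted p = 0.002). Its response to GW was larger in microglia than in BMDM by 1.24 (edgeR adjusted p = 0.017) and than in hepatocytes by 1.7 (edgeR adjusted p = 0.0029), the first of these being at 0.05 without microglia vehicle replicate 1. Gm13710 stood at 8.03, 9.72 and 7.14 CPM with GW, against 5.64, 6.64 and 4.62 CPM with vehicle (log2 0.62, SE 0.14, edgeR adjusted p = 0.00093), and its neighbour Tfpi, an inhibitor of clotting, rose by 0.37. Gm20939 was at 0.54 (SE 0.15, edgeR adjusted p = 0.0052). Gm10076 was at 0.26 (SE 0.08, edgeR adjusted p = 0.011), as was the Rpl41 that shares its sequence at 0.23. Gm44751, Gm26520 and Gm38335, named after their values were seen, were at 0.45, 0.52 and 0.51. The calls of Gm10076, Gm26520 and Gm38335 were lost without GW replicate 1 (edgeR adjusted p = 0.065, 0.058 and 0.2), and each without 1 or more further libraries. That of Gm38335 was also lost without the filter on low counts (0.054) and with the replicate block (0.061).

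Besides AW112010 and Gm36161, 9 members fell with GW in microglia. Gm47283, on the Y chromosome (90784738 to 90816465), stood at 4.18, 4.69 and 5.25 CPM with GW, against 8.64, 9.95 and 9.38 CPM with vehicle (log2 -0.92, SE 0.12, edgeR adjusted p = 3.2e-07); with saringosterol it was at 11.3, 12.02 and 11.9 CPM and did not pass the test (edgeR adjusted p = 0.063). Its longest reference transcript, of 887 bases, shares 57.3% with Erdr1, while the gene as counted has 4501 exon bases. Erdr1, itself a member, was not called (log2 -0.16, SE 0.22) and stood at 1.66 ± 0.185 CPM with GW and 1.93 ± 0.324 CPM with vehicle. Gm39469 stood at 2.75, 3.23 and 2.23 CPM with GW, against 4.35, 5.49 and 5.78 CPM with vehicle (log2 -0.87, SE 0.17, edgeR adjusted p = 0.00013). Gm4316 was at -0.85 (SE 0.30, edgeR adjusted p = 0.032) and 1700001L05Rik at -0.82 (SE 0.32, edgeR adjusted p = 0.049). The call of Gm4316 was lost without GW replicate 1 or 3 or vehicle replicate 1 or 2 (edgeR adjusted p from 0.078 to 0.13), and without the filter on low counts (0.061). That of 1700001L05Rik was lost without GW replicate 1 or 3 or vehicle replicate 2 or 3 (edgeR adjusted p from 0.084 to 0.17). It was also lost with DESeq2's size factors (0.052), no filter (0.11) or the replicate block (0.064), and by DESeq2 (DESeq2 adjusted p = 0.063). Gm4316 shares 52.1% of its transcript with 5 other genes, among them Miga1, which was at 0.74.

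Gm36684 was at -0.66 (SE 0.17, edgeR adjusted p = 0.0038), and all of its transcript is shared with other genes, among them Sod2 at 98.5% identity, which was at -0.30 (SE 0.04). The change of Gm36684 and that of the genes sharing its sequence cannot be told apart. Gm21860 was at -0.55 (SE 0.14, edgeR adjusted p = 0.0036). G530011O06Rik, which shares all 309 bases of the longest reference transcript of Gm21860, was at -0.58. As counted, Gm21860 has 1181 exon bases, and how many of its reads fell in the shared stretch was not tested. A230028O05Rik, 2010320M18Rik and Dubr, named after their values were seen, were at -0.61, -0.60 and -0.30. Their calls were lost without GW replicate 2 for Dubr (edgeR adjusted p = 0.061) and GW replicate 3 or vehicle replicate 2 for 2010320M18Rik (0.095 and 0.059). That of A230028O05Rik was lost without GW replicate 2 or 3 or vehicle replicate 3 (0.13 to 0.3), and by DESeq2 (DESeq2 adjusted p = 0.054). With saringosterol in microglia, Gm26520 rose by 0.56 (SE 0.16), while Gm42743 at -0.60 (SE 0.17) and AU020206 at -0.32 (SE 0.09) fell, with edgeR adjusted p of 0.017, 0.016 and 0.025. Each of these 3 calls was lost without saringosterol replicate 3 or vehicle replicate 2, and some without other libraries too (edgeR adjusted p from 0.054 to 0.14).

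Markers of several other cell types moved with treatment. In microglia the 7 astrocyte markers summed to 28.8 to 35.4 CPM with saringosterol and 63.4 to 67.5 CPM with GW, against 46.0 to 49.0 CPM with vehicle; of 6 tested, 2 fell with saringosterol and 2 rose with GW. Of the 7, Aldh1l1 (18.1 to 38.6 CPM) and Aldoc (3.96 to 19.7 CPM) were the highest in microglia and stood at 8.25 to 21.4 and 3.88 to 28.6 CPM in BMDM, while Slc1a3, at 5.53 to 9.13 CPM in microglia, was at most 0.947 CPM in BMDM. Gfap, Aqp4, Gja1 and S100b were at most 1.27, 0.44, 0.57 and 0.464 CPM in microglia. Oligodendrocyte markers averaged 67.2 CPM with saringosterol and 81.9 CPM with GW, against 74.0 CPM with vehicle, with 2 of 4 tested lower and 3 of 4 higher for the compounds in that order. Kupffer cell markers averaged 354 and 180 CPM, against 290 CPM with vehicle. Of 2 tested, 2 rose with saringosterol, and with GW 1 rose and 1 fell.

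In BMDM endothelial markers averaged 55.9 CPM with saringosterol and 87.2 CPM with GW, against 30.4 CPM with vehicle, and macrophage markers 22350 and 28410 CPM, against 28680 CPM. The part of these markers in the members' changes was not tested, and fewer cells of a type and less RNA per cell cannot be told apart in bulk libraries.

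In BMDM the calls other than AI427809 and Gm14461 were falls. With saringosterol Gm50022 stood at 4.01, 3.69 and 2.4 CPM, against 7.08, 6.1 and 5.72 CPM with vehicle (log2 -0.91, SE 0.18, edgeR adjusted p = 0.0027). The BMDM-biased 9630028I04Rik stood at 8.2, 8.65 and 8.34 CPM, against 12.1, 11.9 and 10.8 CPM with vehicle (log2 -0.46, SE 0.12, edgeR adjusted p = 0.017). Gm10134 was at -0.92 (SE 0.24, edgeR adjusted p = 0.020), while its neighbour Ralgds, an exchange factor of Ral proteins, rose by 0.43. With GW, B020010K11Rik, which shares 44.3% of its transcript with 10 other genes, among them the tubulin gene Tuba1c, was at -1.41 (SE 0.32, edgeR adjusted p = 0.017), and Tuba1c at -0.29. Gm14221 was at -0.98 (SE 0.27, edgeR adjusted p = 0.025). The calls of 9630028I04Rik and Gm10134 were lost without vehicle replicate 1 or 2, and that of Gm10134 also without saringosterol replicate 1 (edgeR adjusted p from 0.069 to 0.088). Those of B020010K11Rik and Gm14221 were lost without GW replicate 1, and without GW replicate 3 for the first and GW replicate 2 or vehicle replicate 2 or 3 for the second (0.056 to 0.10).

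In hepatocytes GW raised Gm17767. The gene of chromosome 1 (51507086 to 51596718, minus strand) stood at 3.58, 4.26 and 4.0 CPM with GW and at 2.64, 2.68 and 2.56 CPM with saringosterol, against 1.4, 1.85 and 1.96 CPM with vehicle. Its log2 fold change was 1.18 (SE 0.19, edgeR adjusted p = 0.00027) with GW and 0.58 (SE 0.20, edgeR adjusted p = 0.13) with saringosterol, and it held at most 0.105 CPM in any microglia or BMDM library. Gm19619 stood at 2.4, 3.62 and 2.34 CPM with GW, against 1.23, 2.01 and 0.807 CPM with vehicle (log2 1.03, SE 0.26, edgeR adjusted p = 0.043), and the call was lost without any of 5 of the 6 libraries. Both genes reached 2 CPM in treated hepatocytes only, so their membership rests in part on the values tested. The nearest protein-coding starts, of Nabp1 and Btc, lie 118293 and 119573 bases away, and neither gene was called with GW. Gm20939 stood at 6.01, 5.13 and 4.62 CPM with saringosterol, against 7.24, 8.74 and 8.18 CPM with vehicle (log2 -0.64, SE 0.15, edgeR adjusted p = 0.024), a call lost without saringosterol replicate 2 (0.13) or 3 (0.10) or vehicle replicate 3 (0.12).

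Whether responses differed between cell types was tested in 1 fit of all libraries. With GW, 5 of 109 members differed between microglia and BMDM, beside 9.71% of all 18979 genes (4.43% higher, 5.28% lower), and 3 between microglia and hepatocytes, beside 8.69% (5.05% higher, 3.64% lower). Gm47283 was the clearest, with a difference of -1.03 (SE 0.21, edgeR adjusted p = 0.00098) from BMDM and -0.81 (SE 0.21, edgeR adjusted p = 0.009) from hepatocytes. With GW, 0 members differed between BMDM and hepatocytes by edgeR (13 at an unadjusted p under 0.05, 1 by DESeq2), beside 4.74% of all genes (3.14% higher, 1.6% lower). That percentage is for edgeR adjusted p. For the unadjusted p and DESeq2 no share of all genes is given, so nothing is read from those counts. Without the BMDM library that stood apart the counts with GW were 6, 4 and 1, beside 11.3%, 9.92% and 6.27% of all genes, for microglia and BMDM, microglia and hepatocytes, and BMDM and hepatocytes. With saringosterol, 4 differed between BMDM and hepatocytes, beside 10.1% of all genes (6.98% higher, 3.13% lower). Without the BMDM library that stood apart 5 did, beside 8.86%, and Gm20939 was lost (edgeR adjusted p = 0.065). Malat1 led the 4 at -1.23 (SE 0.28, edgeR adjusted p = 0.0084): it stood at 115.4, 104.8 and 70.9 CPM in BMDM with saringosterol, against 239, 182 and 133 CPM with vehicle, and at 146.5, 135.8 and 108.3 CPM in hepatocytes with saringosterol, against 109.3, 100.5 and 92.2 CPM with vehicle. Without that library its difference was -1.04 (edgeR adjusted p = 0.02). Malat1 passed the test in neither cell type alone (edgeR adjusted p = 0.075 and 0.14).

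For saringosterol, 0 members differed between microglia and BMDM (16 at an unadjusted p under 0.05, 1 by DESeq2), beside 2.01% of all genes (0.769% higher, 1.24% lower), and 0 between microglia and hepatocytes (16 at an unadjusted p under 0.05, 0 by DESeq2), beside 1.18% (0.906% higher, 0.274% lower). Without that BMDM library the counts were 0 and 1, beside 1.68% and 2.15%, the second being counted after seeing the data. The percentages are for edgeR adjusted p. Nothing is read from the counts at an unadjusted p or by DESeq2, which have no share of all genes beside them.

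The nearest protein-coding gene was read beside each called member. Of the 21 members called with GW in microglia, 15 had a tested neighbour; 6 of these were called, 5 in the member's direction, in a comparison that called 28.7% of all genes. Besides Abca1 and Tfpi these were Ctsc (0.11) beside Gm44751, Fabp5, a fatty acid-binding protein, (0.38) beside Gm38335, and Arfgap3 (-0.16) beside 1700001L05Rik, and Nusap1 moved against Oip5os1. The called neighbours of called members were 1 of 5 tested with saringosterol in microglia, 2 of 4 with saringosterol and 1 of 3 with GW in BMDM, and 0 of 1 with saringosterol and 0 of 2 with GW in hepatocytes; Abca1 was among them in each comparison that had any.

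Of 55 listed names of well-known noncoding genes, 51 were found in the data, 10 of them members and 41 of another biotype or below the threshold. Cyrano, among the names not found, is the gene Oip5os1, which was found under that symbol. Among the 10, AI427809 and Oip5os1 passed such a test, and Malat1, Neat1, Xist, Pvt1, Snhg6, Snhg12, Snhg15 and Snhg20 passed no test of a compound against vehicle within a cell type. Neat1 with GW in microglia was at 0.71 (SE 0.23, edgeR adjusted p = 0.065). Snhg15, a host of small nucleolar RNAs, was highest in hepatocytes, at 10.3 to 15.4 CPM against 2.26 to 6.68 CPM in microglia and BMDM. Of the 41 others, 22 were tested in each cell type. With GW in microglia the imprinted Peg13 (0.58) and the miR-22 host Mir22hg (0.45) rose and Dnmt3aos (-0.34) fell. Dleu2, host of miR-15a and miR-16, fell with saringosterol in microglia (-0.38) and BMDM (-0.65), and Mir99ahg fell in BMDM with saringosterol (-0.82) and GW (-0.66). None of the 41 was called in hepatocytes by edgeR.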

How the data were processed

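RNA of 27 mouse cell cultures was sequenced from an oligo-dT primed low-input kit, per the labels' protocols. The submitters' processing notes name bcl2fastq, STAR 2.5.1a, Subread featureCounts 1.4.6-p5 and GRCm38. Which gene annotation was used, and how strand and multi-mapping reads were handled, is not given in the sources used here. The deposited counts are whole reads per gene, 30295862 to 41040268 a library. The deposited CPM equal the count over the library total, and the deposited TPM, made by the authors, were used only to compare levels between genes. Groups followed the labels, 3 libraries each.

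Members, gene lists and markers were chosen with earlier results of these data known. Counts were tested with edgeR 4.0.16 (R 4.3.3; filterByExpr, TMM, robust quasi-likelihood fit): 9 libraries per cell type for compounds, 9 vehicle libraries for cell types, all 27 for differences in response, with Benjamini-Hochberg adjustment over all genes of a fit and a threshold of 0.05. Fold changes are log2 of the first-named group over the second. The steps were checked on simulated counts. Named genes are, per compound comparison, up to 8 called members with the largest change; the 10 members with the highest TPM; the 6 most biased to each cell type; up to 3 per difference in response; and listed noncoding genes. Others were chosen after their values were seen. Replicates of a group differed beyond sampling noise, and none was merged. Alternatives were DESeq2 1.42.0, its size factors, no filter, a replicate block, each library left out and membership at 1 or 5 CPM. Sequence shared between transcripts was found with BLAST 2.17.0.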

Additional observations from a re-analysis of the deposited data

Results flagged for a closer look

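For 12 results the response of a member differed between cell types in the test of the difference itself (edgeR, adjusted over all genes). With saringosterol, BMDM minus hepatocytes, the difference was -1.23 for Malat1 (SE 0.28, edgeR adjusted p = 0.0084), -0.37 for Gm10076 (SE 0.11, edgeR adjusted p = 0.035), 0.77 for Gm20939 (SE 0.25, edgeR adjusted p = 0.04) and 0.65 for Gm47283 (SE 0.2, edgeR adjusted p = 0.037). Other than that of Malat1, these were lost without single libraries, with edgeR adjusted p up to 0.12, 0.095 and 0.099. With GW, microglia minus BMDM, it was -1.03 for Gm47283 (SE 0.21, edgeR adjusted p = 0.00098), 0.49 for Gm10076 (SE 0.12, edgeR adjusted p = 0.0039), 0.34 for Oip5os1 (SE 0.09, edgeR adjusted p = 0.015), 1.24 for 1700096K18Rik (SE 0.35, edgeR adjusted p = 0.017) and -1.07 for Gm46620 (SE 0.35, edgeR adjusted p = 0.043). That of Gm46620 was lost without any of 8 libraries, with edgeR adjusted p up to 0.14. All of the longest reference transcript of Gm46620 is shared with 4 other genes, among them Gm42427 at 99.7% identity. Its value is therefore uncertain, as are those of Gm10076 and Gm47283, whose shared sequence is given above. With GW, microglia minus hepatocytes, it was 0.42 for Oip5os1 (SE 0.09, edgeR adjusted p = 0.0022), 1.7 for 1700096K18Rik (SE 0.39, edgeR adjusted p = 0.0029) and -0.81 for Gm47283 (SE 0.21, edgeR adjusted p = 0.009).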

How the results depend on the processing

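Over the 6 compound comparisons, 21 of 41 calls of members were kept under every alternative run, 20 were lost under at least 1 and 0 reversed. With membership at 5 CPM the share of tested members called was 17.1% and 41.5% in microglia (saringosterol, GW), 10.0% and 7.5% in BMDM, and 4.88% and 0.0% in hepatocytes; at 1 CPM it was 3.17% for GW in BMDM and 1.5% for each compound in hepatocytes. Among all tested genes whose highest group mean reached 5 CPM, counted after seeing the data, the shares were 14.95% and 37.7% in microglia, 13.8% for each compound in BMDM, and 2.65% and 1.49% in hepatocytes. At 2 CPM they were 13.5% and 35.0%, 12.8% and 12.6%, and 2.38% and 1.38%. At 1 CPM they were 11.8% for GW in BMDM, and 2.19% (saringosterol) and 1.26% (GW) in hepatocytes. In hepatocytes the calls numbered 4 without the filter on low counts for each compound, 7 (saringosterol) and 4 (GW) with the replicate block, and 4 for GW by DESeq2. Of the differences in response, DESeq2 called 1 for saringosterol between microglia and BMDM, and for GW 8 between microglia and BMDM, 6 between microglia and hepatocytes and 1 between BMDM and hepatocytes. For the counts without the filter, with the replicate block and by DESeq2 the share of all genes called is not given. Nothing is read from those counts about the members, and their cause was not tested. Deviations from the group mean were correlated between samples of a cell type. With the same replicate number the correlations ran from -0.23 to 0.12 in microglia, -0.12 to 0.08 in BMDM and -0.01 to 0.20 in hepatocytes. With different numbers they ran from -0.11 to 0.19, -0.21 to 0.19 and -0.12 to 0.04. Correlations this weak cannot decide whether the labels' numbers pair the samples, and the main fits took no pairing.

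Leaving out single libraries gave 4 to 8 calls for saringosterol and 17 to 19 for GW in microglia, 3 to 9 and 1 to 9 in BMDM, and 0 to 5 and 1 to 3 in hepatocytes. For differences in response to saringosterol it gave 0 to 1 (microglia and BMDM), 0 to 1 (microglia and hepatocytes) and 1 to 5 (BMDM and hepatocytes), and for GW 4 to 7, 3 to 5 and 0 to 1 in the same order. Between vehicle groups it gave 85 to 92 (hepatocytes and microglia), 88 to 91 (hepatocytes and BMDM) and 33 to 41 (microglia and BMDM). Except for BMDM saringosterol replicate 3, the shares of all genes called are not given for these settings. Nothing is therefore read from the ranges about the members. Omitting BMDM saringosterol replicate 3 from comparisons of GW and for the interferon list was chosen after seeing the data. The same holds for the difference in response to saringosterol between microglia and hepatocytes.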
